A study of Mus musculus with 11 samples.

Results

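The small leucine-rich proteoglycans are secreted matrix proteins, and 8 of their genes (Dcn, Bgn, Lum, Fmod, Ogn, Prelp, Aspn and Omd) were followed by symbol among the 20640 genes of a bulk RNA-seq table of mouse limb muscle stem cells. All 8 were in the table and all 8 passed the filter on low values (at least 1 RPKM in at least 2 libraries; RPKM is a read count set per unit of gene length and of library size). The 11 libraries came from Pax7-CreERT2;Rosa-YFP mice, in which tamoxifen given at 12 to 14 weeks of age switched on YFP in cells that expressed Pax7 at that time, so YFP also marks whatever those cells became. The sort took limb muscle cells that were YFP+ and negative for Sca-1, CD31 and CD45.

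Cells of geriatric mice, over 28 months old, were split by surface VCAM1 into VCAM1-negative (3 libraries), VCAM1-low (2) and VCAM1-high (3) cells, with the gates placed by the middle-aged animals' YFP+ cells. The other 3 libraries came from middle-aged mice of 10 to 14 months by the sample labels and 12 to 14 months by the extraction protocol, and name no VCAM1 gate. Age, gating and time since labelling therefore change together in every comparison with them. Nothing in the labels says that replicates came from separate animals, so p-values measure the spread between these libraries, which may be technical. In bulk samples, fewer cells of a type and less RNA per cell cannot be told apart.

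The family shares a core of leucine-rich repeats that binds collagen fibrils and sets how fibrils grow and space. Decorin and biglycan carry chondroitin or dermatan sulfate chains, their relative asporin carries a run of aspartates in place of such chains, and lumican, fibromodulin and osteoadherin (Omd) can carry keratan sulfate. Several members also hold growth factors such as TGF-beta in the matrix, and in skeletal muscle fibroblasts are known as a main source of decorin.

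Muscle stem cell markers were read in every library, with Myf5 at 26.7 to 176 RPKM and Pax7 at 1.71 to 7.85 RPKM. Of the 8 markers listed, 3 fell in VCAM1-negative against middle-aged cells, where 7.38% of all genes fell. In VCAM1-negative against VCAM1-high cells 0 passed without regard to replicate number, where 0.0% of all genes did. In a fit of the geriatric libraries with replicate number as a block 4 fell, where 3.43% of all genes fell. With that block in all 11 libraries 1 fell, Vcam1, where 0.562% of all genes passed. The counts of 3 and 4 also include Vcam1, the gene of the protein used to set the gates. Estimated depth ran between 19880000 and 29840000 reads, so that 1 read in a gene of 1 kb was worth 0.0335 to 0.0503 RPKM. Transcripts of other cells were also present. The sum of 9 fibroblast markers (Pdgfra, Pi16, Dpp4, Cd248, Mfap5, Clec3b, Smoc2, Ly6a and Dpt) was 65.1, 63.8 and 94.5 RPKM in the VCAM1-negative libraries, 53.4 and 47.6 RPKM for VCAM1-low, 60.5, 39.9 and 205 RPKM for VCAM1-high and 147, 255 and 443 RPKM in the middle-aged libraries. Dpt alone gave much of that sum and its order of groups: it had 23.3, 9.76 and 48.1 RPKM in VCAM1-negative, 37.1 and 18.4 RPKM for VCAM1-low, 54.5, 27.2 and 117 RPKM for VCAM1-high and 142, 244 and 249 RPKM in middle-aged libraries. Without Dpt, a sum made after its values were seen, the other 8 markers came to 41.8, 54.1 and 46.4 RPKM in VCAM1-negative libraries, 16.3 and 29.2 RPKM for VCAM1-low, 5.97, 12.7 and 88.0 RPKM for VCAM1-high and 4.70, 10.7 and 194 RPKM in middle-aged libraries. Middle-aged replicate 3 was the highest library by both sums. The sum of 8 myofibre genes was 628 to 6513 RPKM in VCAM1-negative, 48.4 to 145 in VCAM1-low, 52.6 to 124 in VCAM1-high and 134 to 285 in middle-aged libraries. Endothelial markers (10 genes) summed to 49.999 to 162, 53.9 to 94.6, 17.8 to 130 and 19.5 to 328 RPKM in the same order of groups, and macrophage markers (9 genes) to 121 to 246, 78.9 to 96.7, 33.1 to 975 and 23.7 to 163 RPKM. Ptprc, which encodes CD45, was at 0 in middle-aged replicates 1 and 2 and reached 3.30 RPKM in VCAM1-high replicate 3.

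Promoter sequences of 300 bases, from 250 before to 50 after the annotated start, were held in the RefSeq table (GRCm38.p6) for 6 of the 8 genes: Bgn, Fmod, Ogn, Prelp, Aspn and Omd. 3 of these are shown because their genes carry the contrasts described next. Bgn (chrX:73483351-73483650, plus strand) was ordered by VCAM1 gate, while Fmod (chr1:134037004-134037303, plus strand) and Aspn (chr13:49544193-49544492, plus strand) moved together from library to library. The capitals mark matches, on either strand, to a GC box (GGGCGG, read as CCGCCC on the other strand), an E-box (CAGCTG, its own reverse complement) or a TATA box (TATAAA, or TTTATA on the other strand).
Bgn: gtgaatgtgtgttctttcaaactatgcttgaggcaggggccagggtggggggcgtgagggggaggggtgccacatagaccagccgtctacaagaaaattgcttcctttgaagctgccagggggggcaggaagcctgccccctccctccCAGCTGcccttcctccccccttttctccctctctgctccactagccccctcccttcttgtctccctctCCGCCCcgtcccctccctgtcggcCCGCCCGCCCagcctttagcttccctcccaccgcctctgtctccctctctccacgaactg
Fmod: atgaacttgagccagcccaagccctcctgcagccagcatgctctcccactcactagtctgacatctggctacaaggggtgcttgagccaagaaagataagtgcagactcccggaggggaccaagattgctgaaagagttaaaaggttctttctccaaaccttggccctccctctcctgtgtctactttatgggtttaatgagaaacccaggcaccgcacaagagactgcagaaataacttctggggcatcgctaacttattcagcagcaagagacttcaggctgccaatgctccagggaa
Aspn: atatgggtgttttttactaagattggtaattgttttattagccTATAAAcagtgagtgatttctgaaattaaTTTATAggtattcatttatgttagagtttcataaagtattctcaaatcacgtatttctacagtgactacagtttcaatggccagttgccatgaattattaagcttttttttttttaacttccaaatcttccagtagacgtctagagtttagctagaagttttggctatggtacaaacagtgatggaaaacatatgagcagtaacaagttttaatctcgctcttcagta
The Bgn window held 3 GC boxes and 1 E-box and was 63.7% G or C. The Aspn window held 2 TATA matches and was 31% G or C, and the Fmod window, at 51%, held none of the motifs searched. Over all 32851 promoters of this length, a GC box was found in 35.7%, this E-box in 16.3% and a TATA box in 13.6%, and the median G or C content was 52.7%. Searches for an AP-1 site (TGANTCA), an NF-kappaB site and a SMAD element (GTCTAGAC), present in 7.81%, 0.411% and 0.213% of promoters, gave no match in the 6 windows. The matches are descriptions of sequence only.

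On the per-length scale of RPKM the family ran from abundant to scarce. Median levels over the 11 libraries were 444 RPKM for Dcn and 358 for Prelp, followed by 114 for Ogn, 78.8 for Bgn, 17.6 for Lum, 8.59 for Omd, 3.02 for Aspn and 2.696 for Fmod. Neighbours in this order overlapped over the libraries except Bgn and Lum, whose ranges of 41.3 to 191 and 4.13 to 36.6 RPKM were separate. Dcn ranked 124 among all genes of the table by its median.

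**Figure D1:**
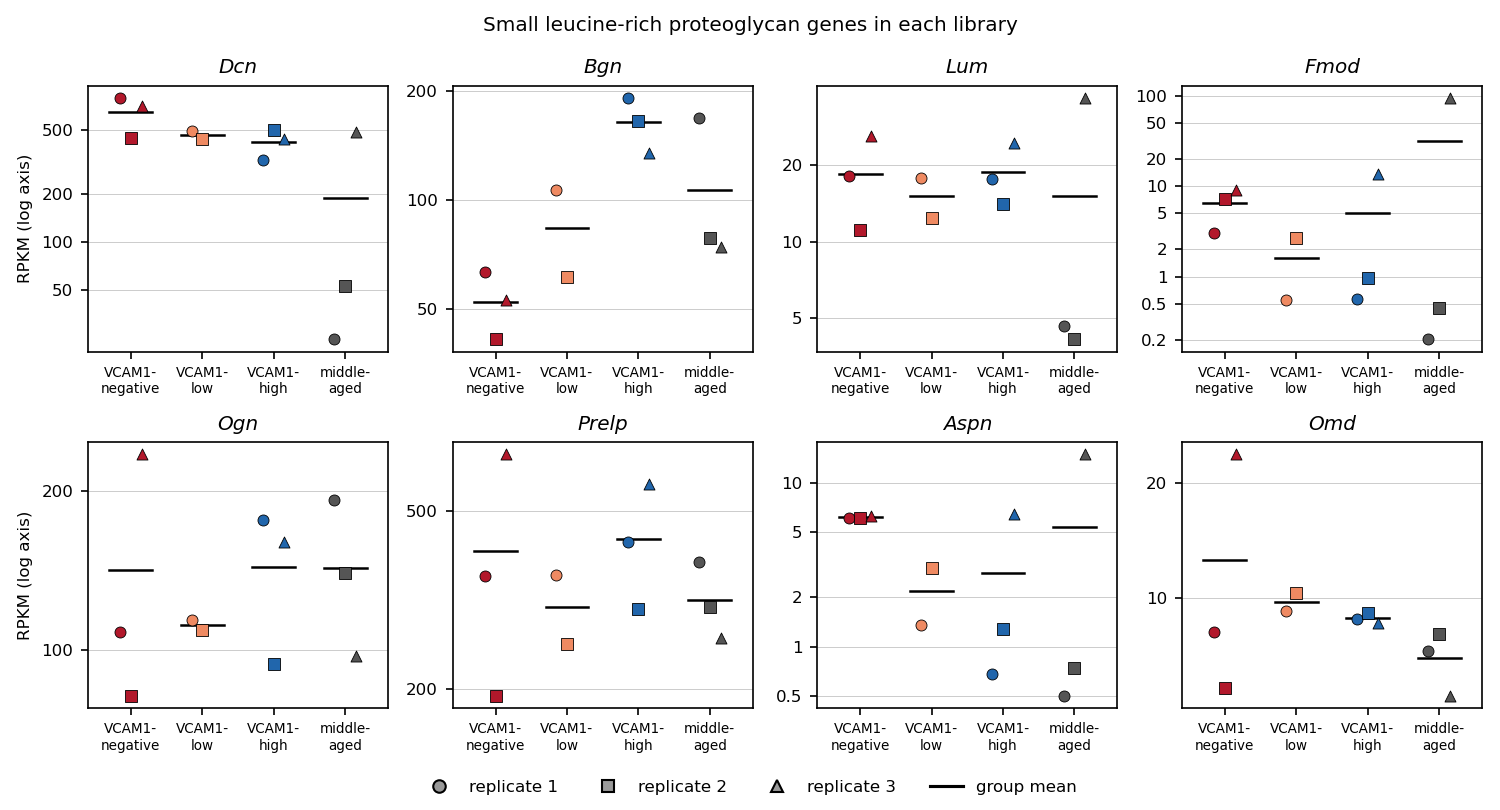
RPKM of each of the 8 genes (log axis) in the VCAM1-negative, VCAM1-low, VCAM1-high and middle-aged libraries. Each point is a library, its shape gives the replicate number and the bar is the group mean; Dcn is low in middle-aged replicates 1 and 2 alone, Bgn is lower the lower the VCAM1 gate, and Fmod and Aspn peak in middle-aged replicate 3.

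Decorin, which coats collagen fibrils and binds TGF-beta and myostatin, was abundant in every geriatric library and low in 2 of the 3 middle-aged ones. Dcn had 795, 444 and 704 RPKM in VCAM1-negative cells, 491 and 444 RPKM in VCAM1-low cells, and 326, 501 and 439 RPKM in VCAM1-high cells, against 24.5, 52.9 and 485 RPKM in middle-aged cells. Middle-aged replicate 3 lay inside the geriatric range, so every geriatric gate overlapped the middle-aged group, while the other 2 middle-aged libraries lay below all 8 geriatric libraries. Dcn rose in VCAM1-negative against middle-aged cells by 2.85 ± 0.80 on the log2(RPKM + 1) scale (SE; limma with Benjamini-Hochberg adjustment, adjusted p = 0.0401). It was the only one of the 8 genes to pass in that comparison, in which 14.4% of 11568 genes passed in either direction and 7.06% passed as higher. The estimates against middle-aged cells were 2.42 ± 0.89 for VCAM1-low cells (adjusted p = 0.123; 4.11% of genes and 0 members called) and 2.25 ± 0.80 for VCAM1-high cells (adjusted p = 0.224), neither past the threshold of 0.05.

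The Dcn call hung on single libraries. It passed in 3 of the 11 fits that left out 1 library. It was lost without any 1 of the VCAM1-negative libraries (adjusted p of 0.0863, 0.0890 and 0.0897 without replicates 1, 2 and 3), without middle-aged replicate 1 (log2 fold change 1.96, adjusted p = 0.120) or 2 (2.50, adjusted p = 0.0998), and just missed the threshold without VCAM1-low replicate 1, VCAM1-low replicate 2 or VCAM1-high replicate 1 (adjusted p of 0.0523, 0.0524 and 0.0520). It was also lost with no filter on low values (adjusted p = 0.0906) and when the 2 groups were fitted alone (adjusted p = 0.0666); the adjusted p lay between 0.000763 and 0.120 over all alternatives. Without middle-aged replicate 3 the estimate was 4.09 (adjusted p = 0.00123) for VCAM1-negative cells, with 6.87% of genes called, and 3.49 (adjusted p = 0.00662) for VCAM1-high cells, with 0.305% called.

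Fibroblast transcripts were counted beside Dcn in the same libraries. VCAM1-high replicates 1 and 2 held 326 and 501 RPKM of Dcn, against 24.5 and 52.9 RPKM in middle-aged replicates 1 and 2. In these VCAM1-high libraries the 9 fibroblast markers summed to 60.5 and 39.9 RPKM (5.97 and 12.7 RPKM without Dpt), against 147 and 255 RPKM (4.70 and 10.7 RPKM without Dpt) in these middle-aged libraries. How the groups compare in fibroblast transcripts thus depended on whether Dpt was counted, and the part of these transcripts in the Dcn values was not tested.

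**Figure D2:**
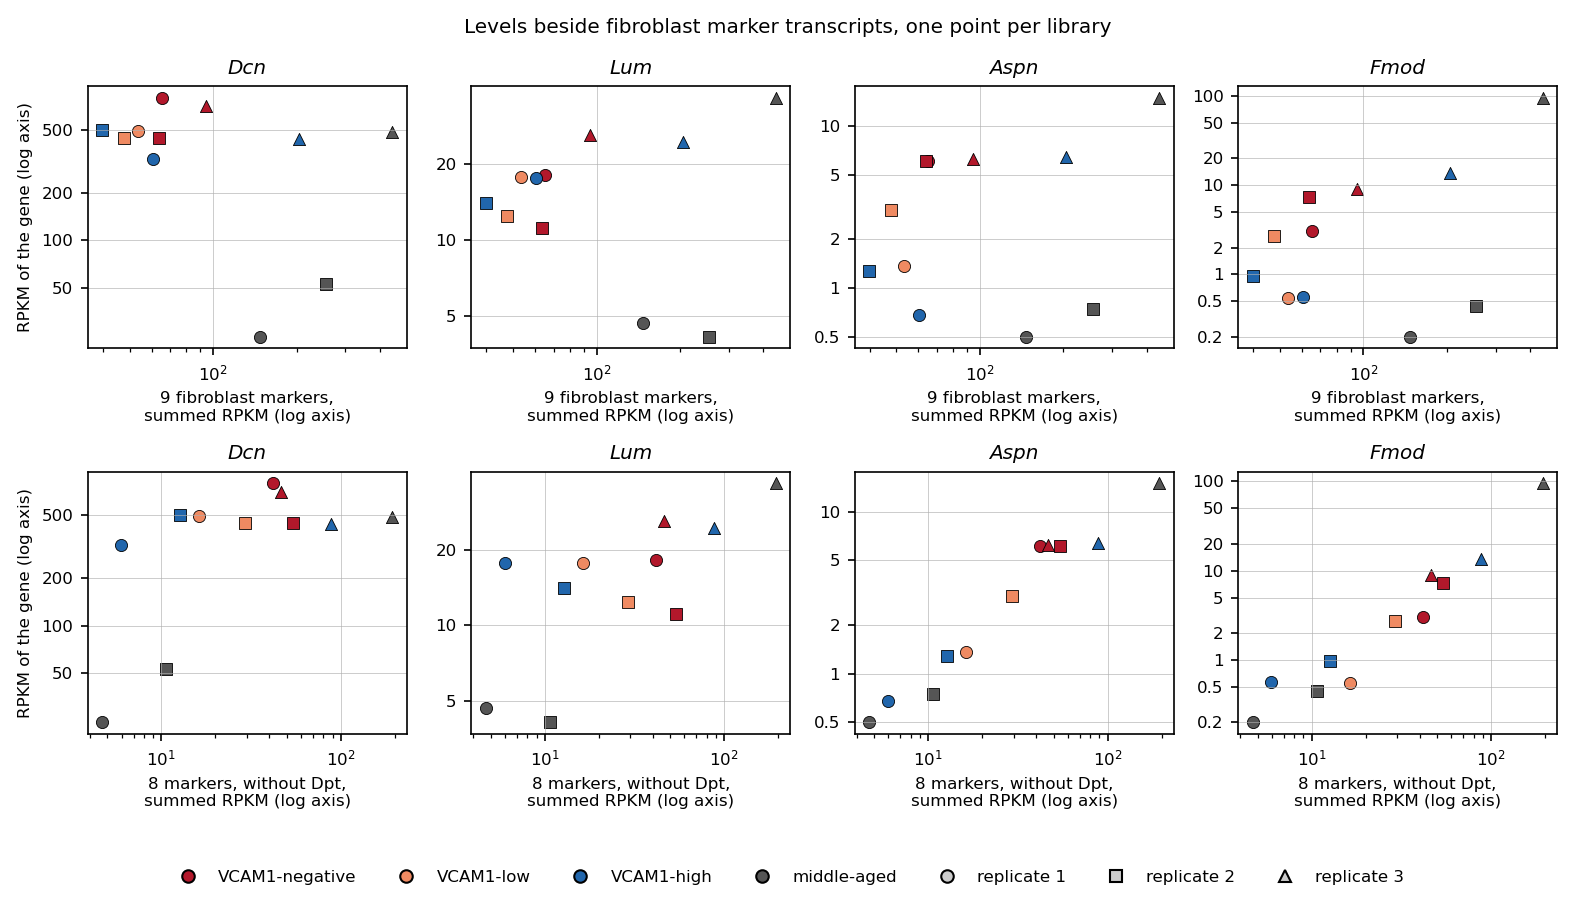
Levels of Dcn, Lum, Aspn and Fmod against the summed RPKM of 9 fibroblast markers (top) and of the 8 without Dpt (bottom), with 1 point for each of the 11 libraries (all axes logarithmic; colour gives the group and shape the replicate). Middle-aged replicates 1 and 2 lie at sums of 147 and 255 RPKM in the top row and of 4.70 and 10.7 RPKM in the bottom row, so the layout of the points changes with Dpt.

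Biglycan, decorin's closest relative and a partner of the dystrophin-associated proteins of muscle, was lower the lower the VCAM1 gate. Bgn had 63.2, 41.3 and 53.0 RPKM in VCAM1-negative cells, 107 and 61.3 RPKM in VCAM1-low cells, and 191, 166 and 135 RPKM in VCAM1-high cells. The gates' values overlapped only in that VCAM1-negative replicate 1 exceeded VCAM1-low replicate 2. Between VCAM1-low and VCAM1-high cells Bgn was separate as lower, as for 13.1% of genes tested, and Omd was separate as higher, as for 3.91%. The order held within every replicate number (number 3 has no VCAM1-low library), with log2 differences between VCAM1-negative and VCAM1-high cells of -1.58, -1.98 and -1.34.

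Fitted without regard to replicate number, Bgn differed by -1.63 ± 0.33 between VCAM1-negative and VCAM1-high cells and did not pass (adjusted p = 0.119). No gene passed in that fit (0.0% of 11568; 755 had an unadjusted p under 0.05, and other scalings, pseudocounts or filters called 0 to 22), and no other member had an unadjusted p under 0.05. Same-numbered geriatric libraries deviated together, and when that number entered as a block, over the 8 geriatric libraries, Bgn fell by the same amount, -1.63 ± 0.15 (adjusted p = 0.00583). In that blocked fit 3.43% of 11325 genes passed as lower and 4.42% passed in either direction, and Bgn was the 1 member of 8 called. It passed in all 8 blocked fits that left out a geriatric library (adjusted p 0.000126 to 0.0359), and with the block in all 11 libraries (adjusted p = 0.0181, with 0.562% of genes called). Without the block, Bgn passed in 0 of the 11 fits that left out 1 library. Over all 30 alternatives it passed in 12, with an adjusted p of up to 0.497, so its call rested on the replicate block. The count of genes called as lower in the 8-library fit rested on single libraries: it was 389 in all, 459 without VCAM1-high replicate 3, 530 without VCAM1-negative replicate 3, 151 without VCAM1-negative replicate 1, 68 without VCAM1-high replicate 1, and 13 to 21 without VCAM1-negative replicate 2, VCAM1-high replicate 2 or either VCAM1-low library. The VCAM1-low cells' difference from VCAM1-high cells was -0.999 ± 0.36 without the block (adjusted p = 0.982), where 0.0% of genes passed.

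Myofibre transcripts moved with the VCAM1-negative gate. The 8 myofibre genes summed to 628, 6513 and 5002 RPKM in the VCAM1-negative libraries, 48.4 and 145 RPKM for VCAM1-low and 52.6, 102 and 124 RPKM for VCAM1-high, and their part in the Bgn values was not tested. Between VCAM1-negative and VCAM1-high cells, Bgn was the only member whose libraries did not overlap downward, as for 8.08% of all genes tested, and no member was separate upward (3.28%).

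**Figure D3:**
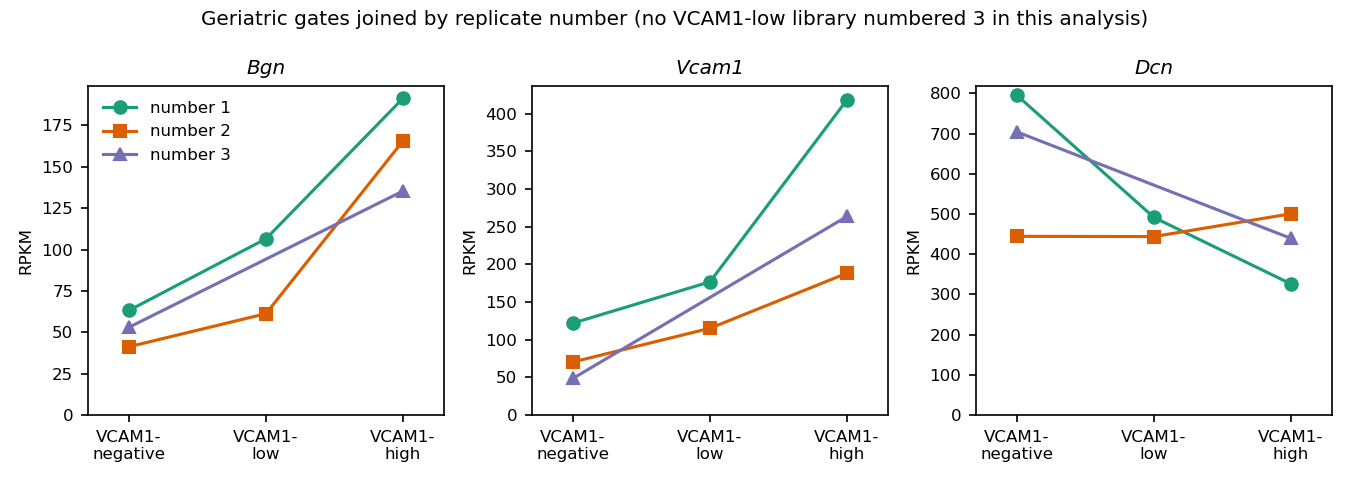
RPKM of Bgn, Vcam1 and Dcn in the geriatric VCAM1-negative, VCAM1-low and VCAM1-high libraries (linear axes from 0), with a line joining libraries of the same replicate number. Bgn climbs with the gate along every line, as does Vcam1, whose protein was used to set the gates. Number 3 has no VCAM1-low library. Dcn is lower in VCAM1-high cells for numbers 1 and 3 and is 444, 444 and 501 RPKM for number 2.

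Against middle-aged cells, at 168, 78.8 and 74.1 RPKM of Bgn, the geriatric gates lay on both sides. All 3 VCAM1-negative libraries were below all 3 middle-aged ones, as for 20.3% of genes tested (18.7% were separate upward), with an estimate of -0.93 ± 0.33 (adjusted p = 0.0759). VCAM1-high cells differed from middle-aged cells by 0.70 ± 0.33 (adjusted p = 0.345), and the middle-aged replicate 1 value fell within the VCAM1-high range. No member passed for VCAM1-high against middle-aged cells, where 0.605% of genes did, nor with the replicate block, where 6.98% did.

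Asporin, which competes with decorin for collagen, was the steadiest member within VCAM1-negative cells and scattered more widely in the other groups. Aspn had 6.13, 6.10 and 6.27 RPKM in VCAM1-negative cells, 1.36 and 3.02 RPKM in VCAM1-low cells, 0.680, 1.28 and 6.45 RPKM in VCAM1-high cells, and 0.501, 0.744 and 15.0 RPKM in middle-aged cells. The VCAM1-negative libraries were above both VCAM1-low libraries, and the replicates numbered 3 of the VCAM1-high and middle-aged groups lay above them all. The difference between VCAM1-negative and VCAM1-high cells was 1.23 ± 0.79 (adjusted p = 0.850; with the 8-library block, adjusted p = 0.101).

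Fibromodulin, a collagen-binding member that also takes part in collagen cross-linking, had the widest range of the family. Fmod had 3.06, 7.30 and 9.05 RPKM in VCAM1-negative cells, 0.549 and 2.696 RPKM in VCAM1-low cells, 0.560, 0.962 and 13.6 RPKM in VCAM1-high cells, and 0.201, 0.445 and 94.9 RPKM in middle-aged cells. One library, middle-aged replicate 3, was thus far above the rest, and its own group held the 2 lowest values of all. The estimate for VCAM1-negative against VCAM1-high cells was 0.98 ± 1.43 (adjusted p = 0.915).

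Against middle-aged cells, VCAM1-negative cells differed by 1.05 ± 0.79 for Aspn (adjusted p = 0.375) and by 0.34 ± 1.43 for Fmod (adjusted p = 0.888).

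Leaving out the third libraries changed the account of Fmod and Aspn. In VCAM1-negative against middle-aged cells, omitting middle-aged replicate 3 gave 2.15 for Aspn, which passed (adjusted p = 0.0375), and 2.40 for Fmod, which did not (adjusted p = 0.0930). Without all libraries numbered 3, both passed, Aspn at 2.14 (adjusted p = 0.00783) and Fmod at 2.14 (adjusted p = 0.0289), as did 7.4% of genes. In the blocked 8-library fit, omitting VCAM1-high replicate 3 gave log2 fold changes in VCAM1-negative against VCAM1-high cells of 1.86 for Aspn (adjusted p = 0.000795) and 1.73 for Fmod (adjusted p = 0.00254), both called higher, as were 3.06% of genes. Omitting VCAM1-negative replicate 3 gave the same fold changes, with adjusted p of 0.000456 and 0.00151 and 3.23% of genes called higher. Between VCAM1-negative and VCAM1-low cells, Aspn and Fmod were the 2 members whose libraries did not overlap, both higher, as for 5.77% of genes (5.1% were separate downward), and no gene passed the test (0.0%).

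Among genes nearest to Fmod and Aspn over the libraries were markers of other cells, shown here because of that likeness. Smoc2, a fibroblast marker, had 8.13, 9.94 and 16.6 RPKM in VCAM1-negative, 2.06 and 6.59 RPKM for VCAM1-low, 1.34, 2.78 and 26.1 RPKM for VCAM1-high and 0.874, 3.58 and 74.5 RPKM in middle-aged libraries. Thbs4, a tendon marker, had 9.13, 12.3 and 10.3 RPKM in VCAM1-negative, 2.27 and 4.27 RPKM for VCAM1-low, 1.69, 1.07 and 20.1 RPKM for VCAM1-high and 1.77, 0.350 and 36.7 RPKM in middle-aged libraries. In each of these 2 marker genes, as in Fmod and Aspn, middle-aged replicate 3 was the highest library and VCAM1-high replicate 3 the next. The same 2 libraries led in 6 of the 9 fibroblast markers and 4 of the 6 tendon markers; among the exceptions, Dpt was as high in middle-aged replicate 2 (244 RPKM) as in replicate 3 (249 RPKM), and the tendon factor Scx had 7.39 RPKM in middle-aged replicate 3, below every geriatric library. The 6 tendon markers summed to 38.1 to 40.3, 26.4 to 34.2, 27.1 to 49.98 and 16.4 to 114 RPKM in VCAM1-negative, VCAM1-low, VCAM1-high and middle-aged libraries, and the part of these transcripts in the Fmod and Aspn values was not tested.

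Lumican, which spaces collagen fibrils in the cornea and in tendon, resembled Dcn at a lower level. Lum had 18.2, 11.1 and 26.0 RPKM in VCAM1-negative cells, 17.8 and 12.4 RPKM in VCAM1-low cells, and 17.6, 14.1 and 24.4 RPKM in VCAM1-high cells, against 4.68, 4.13 and 36.6 RPKM in middle-aged cells. Again 2 middle-aged libraries were below every geriatric library, and middle-aged replicate 3 was above them all. The estimates were 0.84 ± 0.63 for VCAM1-negative (adjusted p = 0.370) and 0.90 ± 0.63 for VCAM1-high cells (adjusted p = 0.522) against middle-aged cells. Without middle-aged replicate 3 they were 1.77, which passed (adjusted p = 0.0214), and 1.83 (adjusted p = 0.0554). Between VCAM1-negative and VCAM1-high cells the difference was -0.06, with a 95% interval between -1.45 and 1.33.

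Prelp, which ties basement membranes to collagen, was high in every library and called in no comparison. Prelp had 358, 193 and 672 RPKM in VCAM1-negative cells, 359 and 251 RPKM in VCAM1-low cells, 426, 302 and 575 RPKM in VCAM1-high cells, and 385, 305 and 260 RPKM in middle-aged cells. The groups overlapped, and the spread within VCAM1-negative cells was wider than any difference between group means. The 95% interval of the log2 difference was -1.10 to 0.65 for VCAM1-negative against VCAM1-high cells and -0.45 to 1.30 for VCAM1-high against middle-aged cells.

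Osteoglycin (Ogn), known as a bone and muscle matrix protein, was called in no comparison when all libraries were used. Ogn had 108, 82.2 and 234 RPKM in VCAM1-negative cells, 114 and 109 RPKM in VCAM1-low cells, 176, 94.4 and 159.9 RPKM in VCAM1-high cells, and 192, 139.9 and 97.7 RPKM in middle-aged cells. Its groups overlapped in each comparison. Of its estimates under all settings tried in the 3 main comparisons, 1 passed: -0.79 in VCAM1-negative against middle-aged cells with the block and without the libraries numbered 3 (adjusted p = 0.0335). That fit called 2808 of 11163 genes, and it used a block although no pairing was taken between these groups. The interval for VCAM1-high against middle-aged cells was -0.83 to 0.85.

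Osteoadherin (Omd), a bone matrix protein that binds hydroxyapatite, was low but present in each library. Omd had 8.14, 5.80 and 23.7 RPKM in VCAM1-negative cells, 9.21 and 10.3 RPKM in VCAM1-low cells, 8.81, 9.13 and 8.59 RPKM in VCAM1-high cells, and 7.25, 8.05 and 5.54 RPKM in middle-aged cells. All 3 VCAM1-high libraries exceeded all 3 middle-aged ones, as for 13.8% of genes tested (6.36% were separate downward), with an estimate of 0.32 ± 0.37 (adjusted p = 0.708). VCAM1-negative replicate 3 was the highest library for Omd, Ogn and Prelp.

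**Figure D4:**
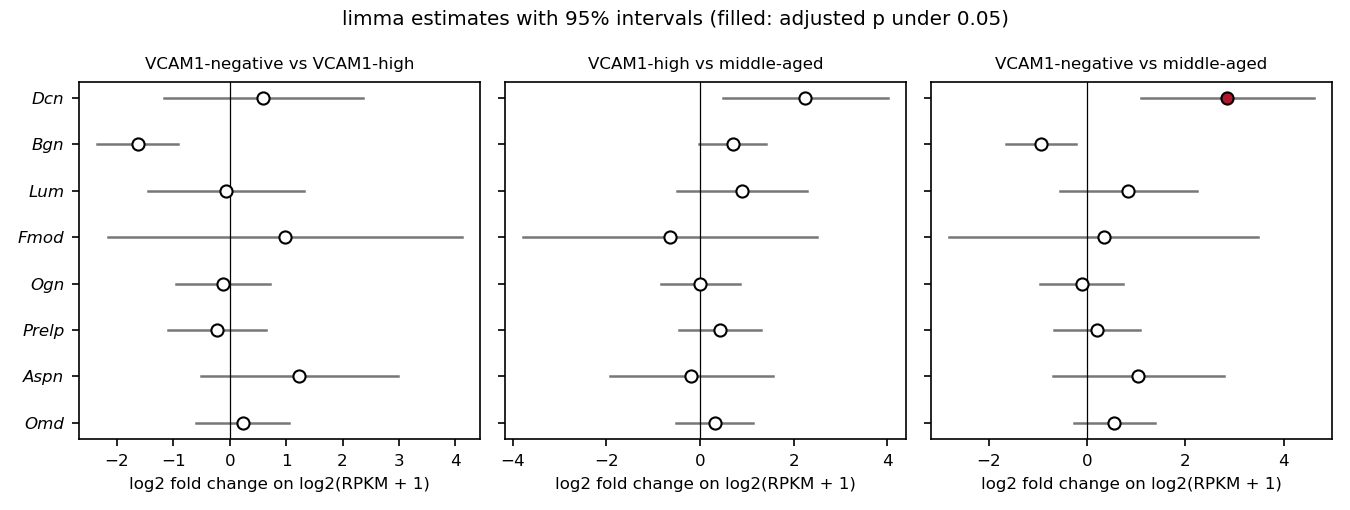
Log2 fold changes of the 8 genes with 95% intervals in limma fits without the replicate block, in the 3 main comparisons. The 1 filled point, past adjusted p of 0.05, is Dcn at 2.85 in VCAM1-negative against middle-aged cells; Bgn at -1.63 is the only interval apart from 0 between the geriatric gates.

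The median log2 fold change of the 8 genes was 0.08 between VCAM1-negative and VCAM1-high cells, where that of all genes tested was -0.07. Against middle-aged cells it was 0.45 in VCAM1-negative cells (all genes, -0.02) and 0.37 in VCAM1-high cells (all genes, 0.04). Asking for any difference among the 4 groups called 0 members, with 3.32% of genes called; the lowest adjusted p among members were 0.0650 for Bgn and 0.143 for Dcn. Both comparisons with middle-aged cells share the same 3 control libraries.

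Chromosomal neighbours differed in median level, and only some of them moved together. In the RefSeq gene order, Dcn lies beside Lum on chromosome 10, Prelp beside Fmod on chromosome 1, and Aspn, Omd and Ogn in a row on chromosome 13, while Bgn lies alone on the X chromosome. Dcn exceeded Lum 5.25-fold to 43.8-fold in RPKM, with the low values at middle age. Prelp and Fmod, side by side, had no pattern in common: Prelp varied 193 to 672 RPKM and Fmod 0.201 to 94.9 RPKM. The Pearson correlation of log2 levels over the 11 libraries was -0.04 for Prelp and Fmod and -0.03 for Aspn and Omd. It was 0.84 for Dcn and Lum and 0.62 for Ogn and Omd.

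Across the libraries, log2 levels of pairs of members gave Pearson correlations that are described here without a test, since the libraries share groups and replicate numbers. Fmod and Aspn had r = 0.94 over 11 libraries and 0.91 over the 8 geriatric ones. Ogn and Prelp had 0.85 and 0.91. Dcn and Lum had 0.84 over 11 libraries, with the 2 low middle-aged libraries among them, and 0.34 over the geriatric ones. Lum and Prelp went the other way, with 0.29 over 11 and 0.98 over the geriatric libraries, and Bgn was inversely related to Aspn (-0.62 and -0.72).

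The genes most like each member over the 11 libraries, by the same measure, were the following. Gata2 (r = 0.96), Slc25a30 (0.95) and Sh2d3c (0.95) were nearest to Dcn, and Stard3nl (0.95), Zfp141 (0.94) and Ldah (0.93) to Bgn. Smoc2, Igfbp6 and C7 (each 0.97) were nearest to Fmod, and Ednrb (0.97), Cpe (0.96) and Thbs4 (0.96) to Aspn. Efemp1 (0.96), Nrp1 (0.93) and Flywch1 (0.90) came closest to Lum, and Ulk2 (0.94), Tmem104 (0.93) and Boc (0.93) to Prelp. Ogn was nearest to Pdss2, Zfp106 and Ptger1 (0.91, 0.91 and 0.90), and Omd to Dennd4b, Pi4ka and Ccni (0.93, 0.92 and 0.92).

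The 8 genes summed to 1360, 791 and 1728 RPKM in VCAM1-negative, 1100.3 and 894 RPKM for VCAM1-low, 1147, 1089 and 1363 RPKM for VCAM1-high and 782, 589.9 and 1068 RPKM in middle-aged libraries. Dcn made up 58.5%, 56.2% and 40.8% of that sum in VCAM1-negative, 44.7% and 49.6% for VCAM1-low and 28.4%, 46.0% and 32.2% for VCAM1-high cells, against 3.14%, 8.98% and 45.4% in middle-aged cells. Bgn made up 4.65%, 5.22% and 3.07% in VCAM1-negative, 9.68% and 6.85% for VCAM1-low, 16.7%, 15.2% and 9.93% for VCAM1-high and 21.5%, 13.4% and 6.93% in middle-aged cells. The ratio of Dcn to Bgn was 12.6, 10.8 and 13.3 in VCAM1-negative cells, 4.61 and 7.25 in VCAM1-low cells, 1.70, 3.02 and 3.25 in VCAM1-high cells, and 0.146, 0.672 and 6.54 in middle-aged cells. The 3 geriatric gates did not overlap in this ratio, and middle-aged replicate 3 fell among the VCAM1-low libraries. The ratio contains Bgn, so it is not independent of the order of Bgn by gate given above. No share of other gene pairs was computed to set beside it.

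**Figure D5:**
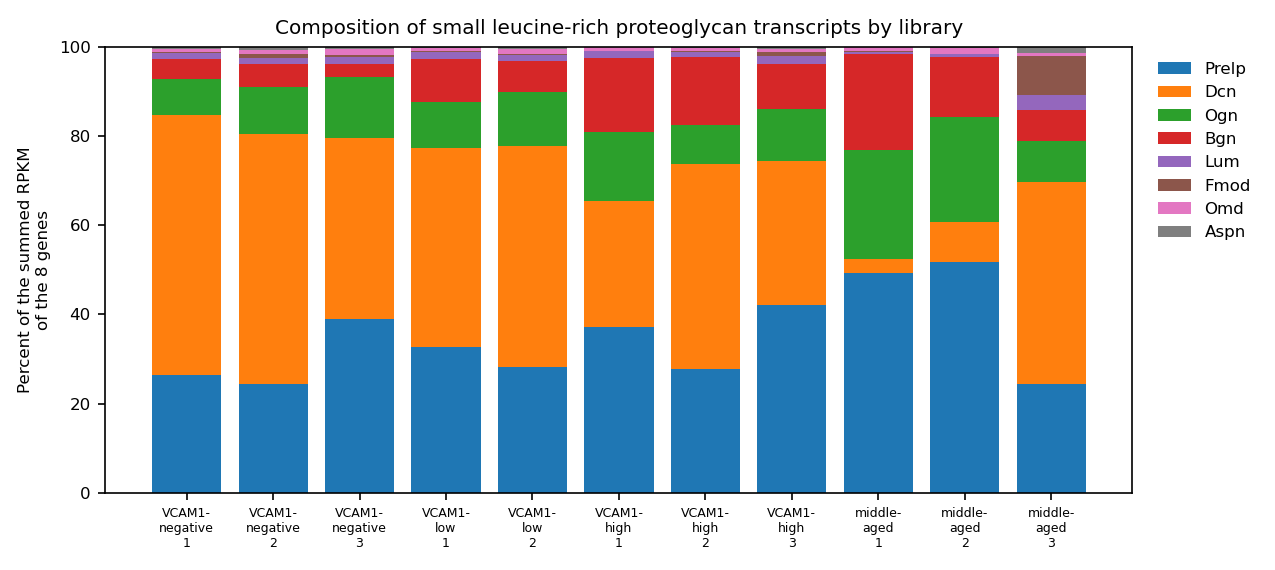
Percent of the summed RPKM of the 8 genes taken by each gene, 1 bar per library in the order VCAM1-negative, VCAM1-low, VCAM1-high and middle-aged. Dcn takes 28.4% to 58.5% in the geriatric libraries and 45.4% in middle-aged replicate 3, and 3.14% and 8.98% in the other 2 middle-aged libraries, where Prelp takes the most.

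Among the other genes of the family, the lists held 10, of which 4 passed the filter and 0 were called in the 3 main comparisons without the block. Ecm2, a neighbour of Aspn, was the most abundant of them at 2.55 to 14.6 RPKM. Chad, a cartilage and tendon member, had 30.5 RPKM in middle-aged replicate 3 and at most 0.516 RPKM in any other library, and Kera, a corneal and tendon member, had 5.26 and at most 0.914 RPKM.

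Several collagens that the family binds were lower in VCAM1-negative than in middle-aged cells. Of 8 fibrillar and fibril-associated collagen genes tested, 5 fell, 0 rose and 3 did not pass, with a median of -1.71, where 7.38% of all genes fell and 14.4% passed in either direction. Col3a1 had 16.7, 6.46 and 32.0 RPKM in VCAM1-negative cells, against 337, 303 and 289.9 RPKM in middle-aged cells, and fell by 4.25 on the log2 scale (adjusted p = 0.0104). Col5a1 (-1.38) and Col5a2 (-1.26), which start fibrils, fell as well. In VCAM1-low against middle-aged cells 2 of 8 fell, with a median of -2.51, where 4.11% of all genes passed in either direction. In VCAM1-high against middle-aged cells 0 of 8 passed without the block, with a median of -1.01, where 0.605% of all genes passed. With the block in all 11 libraries 4 of 8 fell there, where 6.98% of all genes passed in either direction. Between VCAM1-negative and VCAM1-high cells 0 of 8 collagens passed without the block. With the block in the 8 geriatric libraries 6 fell, where 3.43% of all genes did. Among them were Col3a1 (-1.61, adjusted p = 0.0373), Col5a1 (-0.60) and Col5a2 (-0.83). With the block in all 11 libraries 0 of 8 passed between these gates, where 0.562% of all genes did.

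Lysyl oxidase (Lox), which cross-links collagen, shared the direction of Dcn and did not share its exception. Lox had 135, 109.6 and 121 RPKM in VCAM1-negative cells, 106 and 161 RPKM in VCAM1-low cells, and 128, 194 and 72.8 RPKM in VCAM1-high cells, against 14.0, 33.8 and 15.7 RPKM in middle-aged cells. All 8 geriatric libraries were above all 3 middle-aged ones, replicate 3 included. Lox rose by 2.57 in VCAM1-negative (adjusted p = 0.00486) and by 2.58 in VCAM1-high cells (adjusted p = 0.0171) against middle-aged cells. Of 9 fibril-processing genes tested, 1 rose and 2 fell in VCAM1-negative against middle-aged cells, where 7.06% of all genes rose and 7.38% fell. The falls were in Bmp1 (-1.40) and Loxl2 (-0.95). Without the block only Lox passed in VCAM1-high against middle-aged cells, where 0.605% of all genes passed. With the block 1 of 9 rose there, Lox, and 3 fell, where 6.98% of all genes passed in either direction. Pcolce, an enhancer of collagen processing, fell in VCAM1-negative against VCAM1-high cells in the blocked 8-library fit (-0.93, 1 of 9), where 3.43% of all genes fell. With the block in all 11 libraries Pcolce did not pass (adjusted p = 0.0936).

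Enzymes that cut the family's core proteins or matrix included 7 tested genes, of which 2 fell in VCAM1-negative against middle-aged cells, where 7.38% of all genes fell: Htra1, a serine protease (-2.10, adjusted p = 0.00773), and Mmp2, a gelatinase (-1.54, adjusted p = 0.0290). Htra1 also fell in VCAM1-high against middle-aged cells (-1.94, adjusted p = 0.0368, 1 of 7), where 0.605% of all genes passed. None passed between the gates in either fit.

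Of 9 tested growth factors that the family can hold in the matrix, 4 fell in VCAM1-negative against middle-aged cells and 0 rose (7.38% of all genes fell), including Igf1 (-2.12, adjusted p = 0.00238), Tgfb2 (-1.17) and Ccn4 (-1.28). Igf1 fell in VCAM1-high against middle-aged cells too (-1.34, adjusted p = 0.0418, 1 of 9), where 0.605% of all genes passed. With the block in the geriatric libraries 2 fell between VCAM1-negative and VCAM1-high cells, Ccn4 (-1.09, adjusted p = 0.0143) and Ccn2 (-1.05, adjusted p = 0.0430). In that blocked fit 3.43% of all genes fell. With the block in all 11 libraries 0 of 9 passed between these gates, where 0.562% of all genes did. Of 12 receptors tested, 1 fell in VCAM1-negative against middle-aged cells, a share near the 7.38% of all genes. It was Itgb1, a subunit of collagen-binding integrins (-0.72, adjusted p = 0.0257). In VCAM1-high against middle-aged cells none passed without the block. With the block 1 of 12 rose there, Tlr2 (1.47, adjusted p = 0.0401), where 6.98% of all genes passed in either direction. Cd44 fell between the gates in the blocked fit (-0.81, adjusted p = 0.0143, 1 of 11 against 3.43% of all genes).

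Among 17 tested enzymes that build chondroitin and dermatan sulfate, 2 fell in VCAM1-negative against middle-aged cells, a share near that of all genes (7.38% fell and 14.4% passed in either direction). They were Chst14, which sulfates dermatan (-1.26, adjusted p = 0.0227), and Csgalnact1, which starts chondroitin chains (-1.36, adjusted p = 0.0374). Chst14 fell between the gates too in the blocked fit (-0.82, adjusted p = 0.01997, 1 of 17), where 3.43% of all genes fell. Of 3 keratan sulfate enzymes tested, B3gnt2 rose (1.03, adjusted p = 0.0135) and B4galt4 fell (-1.02, adjusted p = 0.0426). The keratan and chondroitin lists had 0 genes called in VCAM1-high against middle-aged cells without the block. With the block 2 of 17 chondroitin and dermatan enzymes rose there, Chst15 (0.78, adjusted p = 0.0261) and Dse (0.74, adjusted p = 0.031). Of the 3 keratan enzymes, 1 rose with the block, B3gnt2 (0.97, adjusted p = 0.0225). In that blocked comparison 6.98% of all genes passed in either direction.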

How the data were processed

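RNA-seq of 11 sorted cell samples was used as deposited: per the labels and the file, the authors gave RPKM values for 20640 genes, of which 2161 were at 0 in every library. GRCm39, STAR 2.7.5b, cutadapt 3.1, SAMtools 0.1.19 and Bowtie2 2.1.0 stand in the submitters' processing notes; not given in the sources used here were the role of each tool, the read counter, the annotation and the gene lengths. Per the labels' protocols, libraries were made by SMART-Seq v4, which amplifies cDNA, and sequenced as paired ends. Read totals were not used; depth was estimated from the steps of low RPKM values in 3428 single-transcript genes (63.3% to 72.1% of values came out whole to a tolerance of 0.1 reads; 20% would by chance), too few for a count test.

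The tests used log2(RPKM + 1) in limma 3.58.1 (R 4.3.3; trend, Benjamini-Hochberg over 11568 genes with at least 1 RPKM in at least 2 libraries, called at adjusted p under 0.05), with a mean per group in 1 fit of all 11 libraries. A fold change on this scale understates the change of low genes. The fits were checked on simulated data. Replicate numbers were taken, from these same data, to pair VCAM1-negative with VCAM1-high libraries, whose same-numbered deviations correlated at 0.41, 0.58 and 0.40. The highest values with a library of another number were -0.12, -0.19 and -0.19. Deviations from a group mean cancel over its few libraries, so positive same-number values themselves tend to make the others negative. That contrast is thus partly fixed in advance. VCAM1-high and middle-aged libraries were also taken as paired (0.21, 0.33 and 0.55, against 0.33, 0.08 and -0.21 with another number). For number 1 the values thus do not bear out that pairing. The values for VCAM1-negative with middle-aged libraries were -0.02, 0.03 and 0.08, and no pairing was taken there. The alternatives were a pseudocount of 0.1, no filter or a mean of at least 5 RPKM, equal RPKM sums or median ratio scaling, fits of 2 groups alone, the replicate block and omitted libraries. The block in all 11 libraries without those numbered 3 or without middle-aged replicate 3, the omissions under the 8-library block and the fibroblast sum without Dpt were chosen after seeing the data.

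The 8 genes and the gene lists were chosen with earlier results of these data known. Named genes were the 8 members, 6 sort and identity markers, up to 3 genes per list, those lowest in adjusted p, in each main comparison, and the 3 genes most correlated with each member; Chad, Kera, Dpt, Smoc2, Thbs4 and the markers of the sums were named for their values or as list members. Promoter sequences are from RefSeq (GRCm38.p6), and no coordinates were converted between builds.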

Additional observations from a re-analysis of the deposited data

How the results depend on the processing

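With 3, 2, 3 and 3 libraries, 1 library could decide a call. Of 732 member results under alternatives, 621 kept their direction and side of the threshold, 54 newly passed, 10 no longer passed and 47 changed sign, all 47 in genes and comparisons not called; the cause was not tested. Members called in VCAM1-negative against VCAM1-high cells numbered 0 without and 1 with the replicate block (11 or 8 libraries), 3 with the block and without the libraries numbered 3, and 0 to 3 over omissions. In VCAM1-high against middle-aged cells they numbered 2 without the libraries numbered 3, with or without the block, and 0 to 2 over omissions. In VCAM1-negative against middle-aged cells they numbered 0 with no filter or with 2 groups alone, 2 with the block (Dcn, adjusted p = 0.0159, and Bgn, adjusted p = 0.00836), 4 or, blocked, 6 without the libraries numbered 3, and 0 to 5 over omissions. VCAM1-low against middle-aged cells gave 1 with the block, 2 or, blocked, 3 without number 3, and 0 to 2 over omissions; the other gate pairs gave 0 to 1 (VCAM1-low against VCAM1-high) and 0 to 2 (VCAM1-negative against VCAM1-low). Any difference among groups gave 1 at a mean of at least 5 RPKM, 1 with the block, 3 or, blocked, 5 without number 3, and 0 to 3 over omissions. Sign changes: under median ratio scaling, Lum 0.011 (VCAM1-negative against VCAM1-high) and Ogn -0.062 (VCAM1-high against middle-aged); without number 3, blocked or not, Omd -0.34 (VCAM1-negative against VCAM1-high), Fmod 0.41, Aspn 0.27 and Ogn -0.34 (VCAM1-high against middle-aged), Prelp -0.38 and Omd -0.13 (VCAM1-negative against middle-aged). Over omissions, VCAM1-negative against VCAM1-high ranged -0.34 to 0.24 (reversed at 0.04 to 0.24) for Lum, -0.55 to 0.20 (from 0.002) for Ogn, -0.68 to 0.22 (from 0.001) for Prelp and -0.34 to 0.61 (up to -0.32) for Omd. VCAM1-high against middle-aged ranged -1.73 to 1.43 (from 0.79) for Fmod, -0.51 to 0.28 (up to -0.09) for Ogn, -0.045 to 0.66 for Prelp, -0.83 to 0.92 (from 0.03) for Aspn and -0.078 to 0.42 for Omd. VCAM1-negative against middle-aged ranged -0.76 to 2.40 (up to -0.62) for Fmod, -0.62 to 0.21 (from 0.01) for Ogn and -0.27 to 0.65 (up to -0.25) for Prelp. The number of genes called was 0 for VCAM1-negative against VCAM1-high cells (13 to 22 with other scalings, the 0.1 pseudocount or the 5 RPKM filter, 65 and 500 with the 11- and 8-library blocks, 0 to 890 over omissions), 70 for VCAM1-high against middle-aged cells (14 with 2 groups alone, 20 with no filter, 807 blocked, 18 to 813 over omissions) and 1671 for VCAM1-negative against middle-aged cells (870 with no filter, 826 without number 3, 3656 blocked, 339 to 3150 over omissions). Without number 3, 9 of 11163 genes were called (118 blocked) for VCAM1-negative against VCAM1-high cells and 95 (706 blocked) for VCAM1-high against middle-aged cells. Blocked and without number 3, VCAM1-negative against middle-aged cells gave 2808. VCAM1-low against middle-aged cells gave 475 genes (1827 blocked, 401 without number 3, 2148 with both, 66 to 2087 over omissions outside VCAM1-low). VCAM1-low against VCAM1-high cells gave 0 (0 to 96 over omissions outside VCAM1-low). VCAM1-negative against VCAM1-low cells also gave 0 (0 to 117 over such omissions). Any difference among groups gave 384 (404 at the 5 RPKM filter, 2025 blocked, 251 without number 3, 1518 with both, 39 to 1689 over omissions). Scaling moved the median gene by less than 0.1 in log2.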

Other observations

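Transcripts of bone and tendon regulators, which are known partners of the family in skeletal tissues, were also present in the sorted cells. Sox9, a cartilage regulator, had 70.6 to 199 RPKM in the geriatric libraries and 105, 118 and 119 RPKM in the middle-aged ones. Of 7 cartilage and bone genes, 2 passed the filter, and Acan, Ibsp, Sp7 and Col2a1 were near 0. Dmp1, an acidic bone matrix protein, had 1.88, 1.10 and 0.725 RPKM in VCAM1-negative, 1.80 and 3.94 in VCAM1-low, 13.9, 27.2 and 9.50 in VCAM1-high and 3.96, 1.41 and 1.33 RPKM in middle-aged cells. It rose in VCAM1-high against middle-aged cells (2.44, adjusted p = 0.0297) and fell in VCAM1-negative against VCAM1-high cells in the blocked 8-library fit (-2.91, adjusted p = 0.00591). Scx, a tendon transcription factor, rose against middle-aged cells in VCAM1-negative (1.18, adjusted p = 0.00972) and VCAM1-high cells (1.14, adjusted p = 0.0410), and was 10.7 to 17.1 RPKM in the geriatric libraries and 5.77, 5.25 and 7.39 RPKM in the middle-aged ones.

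Of the marker lists of other cells, the 8 myofibre genes all rose in VCAM1-negative against middle-aged cells and, in the blocked 8-library fit, against VCAM1-high cells. Of all genes, 7.06% rose and 7.38% fell in VCAM1-negative against middle-aged cells, and 4.42% passed in either direction in that blocked fit. The fibroblast list had 1 of 8 lower in VCAM1-negative against middle-aged cells (Dpt, -3.14), the mural list 1 of 6 higher (Abcc9, 1.04), and the endothelial, macrophage and glial lists 0 of 9, 0 of 8 and 0 of 3. Of 8 muscle stem cell markers, 3 fell in VCAM1-negative against middle-aged cells (Vcam1, -1.98, Calcr, -1.001, and Itga7, -1.36). Vcam1 encodes the protein used to set the gates.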
